A study of Mus musculus with 6 samples.

Results

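The genes described here are 10 genes of the MHC class I pathway, taken by symbol from the 53647 genes of the deposited count matrices of proximal pulmonary arteries (PAs) of mice. They are the classical heavy chains H2-K1 and H2-D1, the non-classical heavy chain H2-T23, the light chain B2m, the peptide transporter subunits Tap1 and Tap2, tapasin (Tapbp), the immunoproteasome subunits Psmb8 and Psmb9, and Nlrc5, a transcriptional activator of class I genes. The arteries came from C57BL/6J mice, the old ones in part from the NIA aging colony, and were digested with collagenase and elastase before droplet single-cell RNA sequencing (scRNAseq) with 3′ tags and unique molecular identifiers (UMIs). There were 2 young libraries, both of 3 months, and 4 old libraries, of 20, 24, 27 and 28 months, each from 1 mouse, and the labels name no treatment. The labels mark the second young library and that of 28 months as female and that of 27 months as male. The study describes the old mice of 20, 24 and 27 months as male. A further young mouse of the study was not analysed here. All 10 genes had 1 entry in the matrices. H2-K1, H2-D1, B2m and Tapbp had UMIs in every sum of a library and cell type, while the other 6 genes had none in 1 to 4 libraries of some types, smooth muscle cells foremost, where Nlrc5 had no UMI in 4 of the 6 libraries and Tap2 in 3.

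Class I molecules show fragments of a cell's own proteins at its surface, where CD8 T cells read them and natural killer cells sense their loss. The proteasome cuts the proteins, the Tap1 and Tap2 transporter carries the peptides into the endoplasmic reticulum, and tapasin holds the empty heavy chain and B2m at the transporter until a peptide fits. Most nucleated cells carry class I at some level, and interferons raise the heavy chains, the transporter and the immunoproteasome together, in part through Nlrc5, which acts with DNA-binding factors at an upstream block of class I promoters.

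Of the 10 genes, 8 lie on chromosome 17 (GRCm38, GENCODE M21), in the major histocompatibility complex. H2-K1 is at chr17:33996017-34000347 on the minus strand and H2-D1 at chr17:35262730-35267499 on the plus strand. B2m is at chr2:122147686-122153083 and Nlrc5 at chr8:94434356-94527272. Promoter sequences from RefSeq (GRCm38.p6, 250 bases before to 50 bases after the RefSeq gene start) were at hand for 8 of the 10, all but Tap2 and Nlrc5. They are shown for the genes with the highest UMI counts and for Tap1, whose start faces that of Psmb9. In the lines below, capitals mark 4 motifs searched on both strands, with a match on the other strand seen as its reverse complement, and no matches overlap in the windows shown: GGGATTC (the core of an NF-kappaB-type site), AGTTTC (part of an interferon-stimulated element), TGACG (the core of a cAMP response element) and CCAAT (a Y box).
H2-K1, chr17:34000298-34000597, minus strand: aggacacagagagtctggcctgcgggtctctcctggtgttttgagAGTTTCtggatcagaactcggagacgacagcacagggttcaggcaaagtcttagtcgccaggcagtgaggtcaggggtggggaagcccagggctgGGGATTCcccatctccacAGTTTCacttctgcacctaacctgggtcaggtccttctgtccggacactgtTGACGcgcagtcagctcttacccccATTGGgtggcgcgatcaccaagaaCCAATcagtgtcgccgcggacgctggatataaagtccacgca
H2-D1, chr17:35262844-35263143, plus strand: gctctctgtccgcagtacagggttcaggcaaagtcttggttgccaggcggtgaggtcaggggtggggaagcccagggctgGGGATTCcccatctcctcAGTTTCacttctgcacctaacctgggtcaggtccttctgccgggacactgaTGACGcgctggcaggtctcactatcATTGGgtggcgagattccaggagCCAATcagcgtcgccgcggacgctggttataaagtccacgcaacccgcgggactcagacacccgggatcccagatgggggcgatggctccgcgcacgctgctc
B2m, chr2:122147437-122147736, plus strand: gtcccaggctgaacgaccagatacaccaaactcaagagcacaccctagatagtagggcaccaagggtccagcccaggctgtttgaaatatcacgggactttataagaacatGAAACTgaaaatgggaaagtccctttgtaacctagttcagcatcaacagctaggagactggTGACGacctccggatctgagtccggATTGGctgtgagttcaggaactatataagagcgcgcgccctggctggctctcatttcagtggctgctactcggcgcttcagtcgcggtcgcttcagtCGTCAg
Tap1, chr17:34187306-34187605, plus strand: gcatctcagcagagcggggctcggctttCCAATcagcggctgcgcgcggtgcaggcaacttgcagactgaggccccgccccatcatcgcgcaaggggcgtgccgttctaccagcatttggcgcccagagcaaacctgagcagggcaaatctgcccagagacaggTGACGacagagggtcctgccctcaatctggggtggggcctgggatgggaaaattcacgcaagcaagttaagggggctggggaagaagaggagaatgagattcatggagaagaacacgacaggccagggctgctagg

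The H2-K1 and H2-D1 windows carried all 4 motifs. GGGATTC began 110 bases before the RefSeq gene start of H2-K1 and 170 before that of H2-D1, TGACG 41 and 101 bases before it, and the first CCAAT, on the other strand, 16 and 76 bases before it. RefSeq starts can differ from the GENCODE positions above, and the whole H2-D1 window lies after its GENCODE start at 35262730. The offset between the motifs of the 2 genes thus depends on the start used. GGGATTC was in 842 of 27025 promoters of this length (3.12%) and in no other of the 8 matched genes. AGTTTC was in 16% of all promoters and in 4 of the 8 windows, those of H2-K1, H2-D1, B2m and Psmb8. TGACG was found in 5 of the 8 windows and in 21% of all promoters, and CCAAT in 7 of the 8 and in 37.9%. The Tap1 and Psmb9 windows overlap over 275 bases, so the pair shares most of 1 stretch of sequence, and their RefSeq starts are 226 bp apart. A match describes letters only and was not tied to any measured binding.

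After the filters on barcodes (500 or more UMIs, 300 or more genes and no more than 20% of UMIs from mitochondrial genes) and the removal of 311 doublets among 15622 barcodes, 15311 cells remained, 926 to 4017 per library, with a median of 801.5 to 8150 UMIs per barcode. Total UMIs per library ran from 6355125 to 50436562, and the young libraries were among the shallower ones, with medians of 841 and 816. Both young libraries and that of 24 months shared 130 to 212 cell barcodes per pair, where chance gives at most 1.10, and 88.7% to 92.9% of those cells were airway or ciliated cells. The labels name no sequencing batch, and these 3 libraries are called the shared-barcode set below. As it holds both young libraries and 1 of the 4 old ones, the set and age can hardly be told apart. With the set as a covariate, the age estimate therefore compares only the 24-month library with the young ones. The library of 20 months, described as male, held 2395 Xist and 205 Ddx3y UMIs. Its other Y-linked genes held 2 (Eif2s3y), 2 (Kdm5d) and 15 (Uty) UMIs. The other libraries described as male or with high Ddx3y held 46 to 164 Xist UMIs. They held 105 to 1819 Eif2s3y, 56 to 494 Kdm5d and 290 to 2209 Uty UMIs. Cell types were named from marker genes, and each name stands for cells like that type. The SMC sum of the 24-month library rested on 10 cells, with 9316 CPM (UMIs of the genes scaled to the same total in each sum) of smooth muscle markers against 27804 to 48905 in the other libraries, and with 29446 CPM of alveolar epithelial markers. The young SMC sums, from 24 and 34 cells, held 384 to 4652 CPM of cardiomyocyte and 1580 to 3070 CPM of fibroblast markers. Old SMC sums held 126 to 5033 and 428 to 2571 CPM of these. Their part in the SMC values was not tested.

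The class I genes differed widely between cell types. Among the wall cells, the levels in CPM of the summed UMIs were high in endothelial cells (ECs) and perivascular macrophages (MΦs), lower in fibroblasts (FBs) and lowest in smooth muscle cells (SMCs). Values are of 3′ UMIs and are compared between cells for 1 gene, not between genes.

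**Figure D1:**
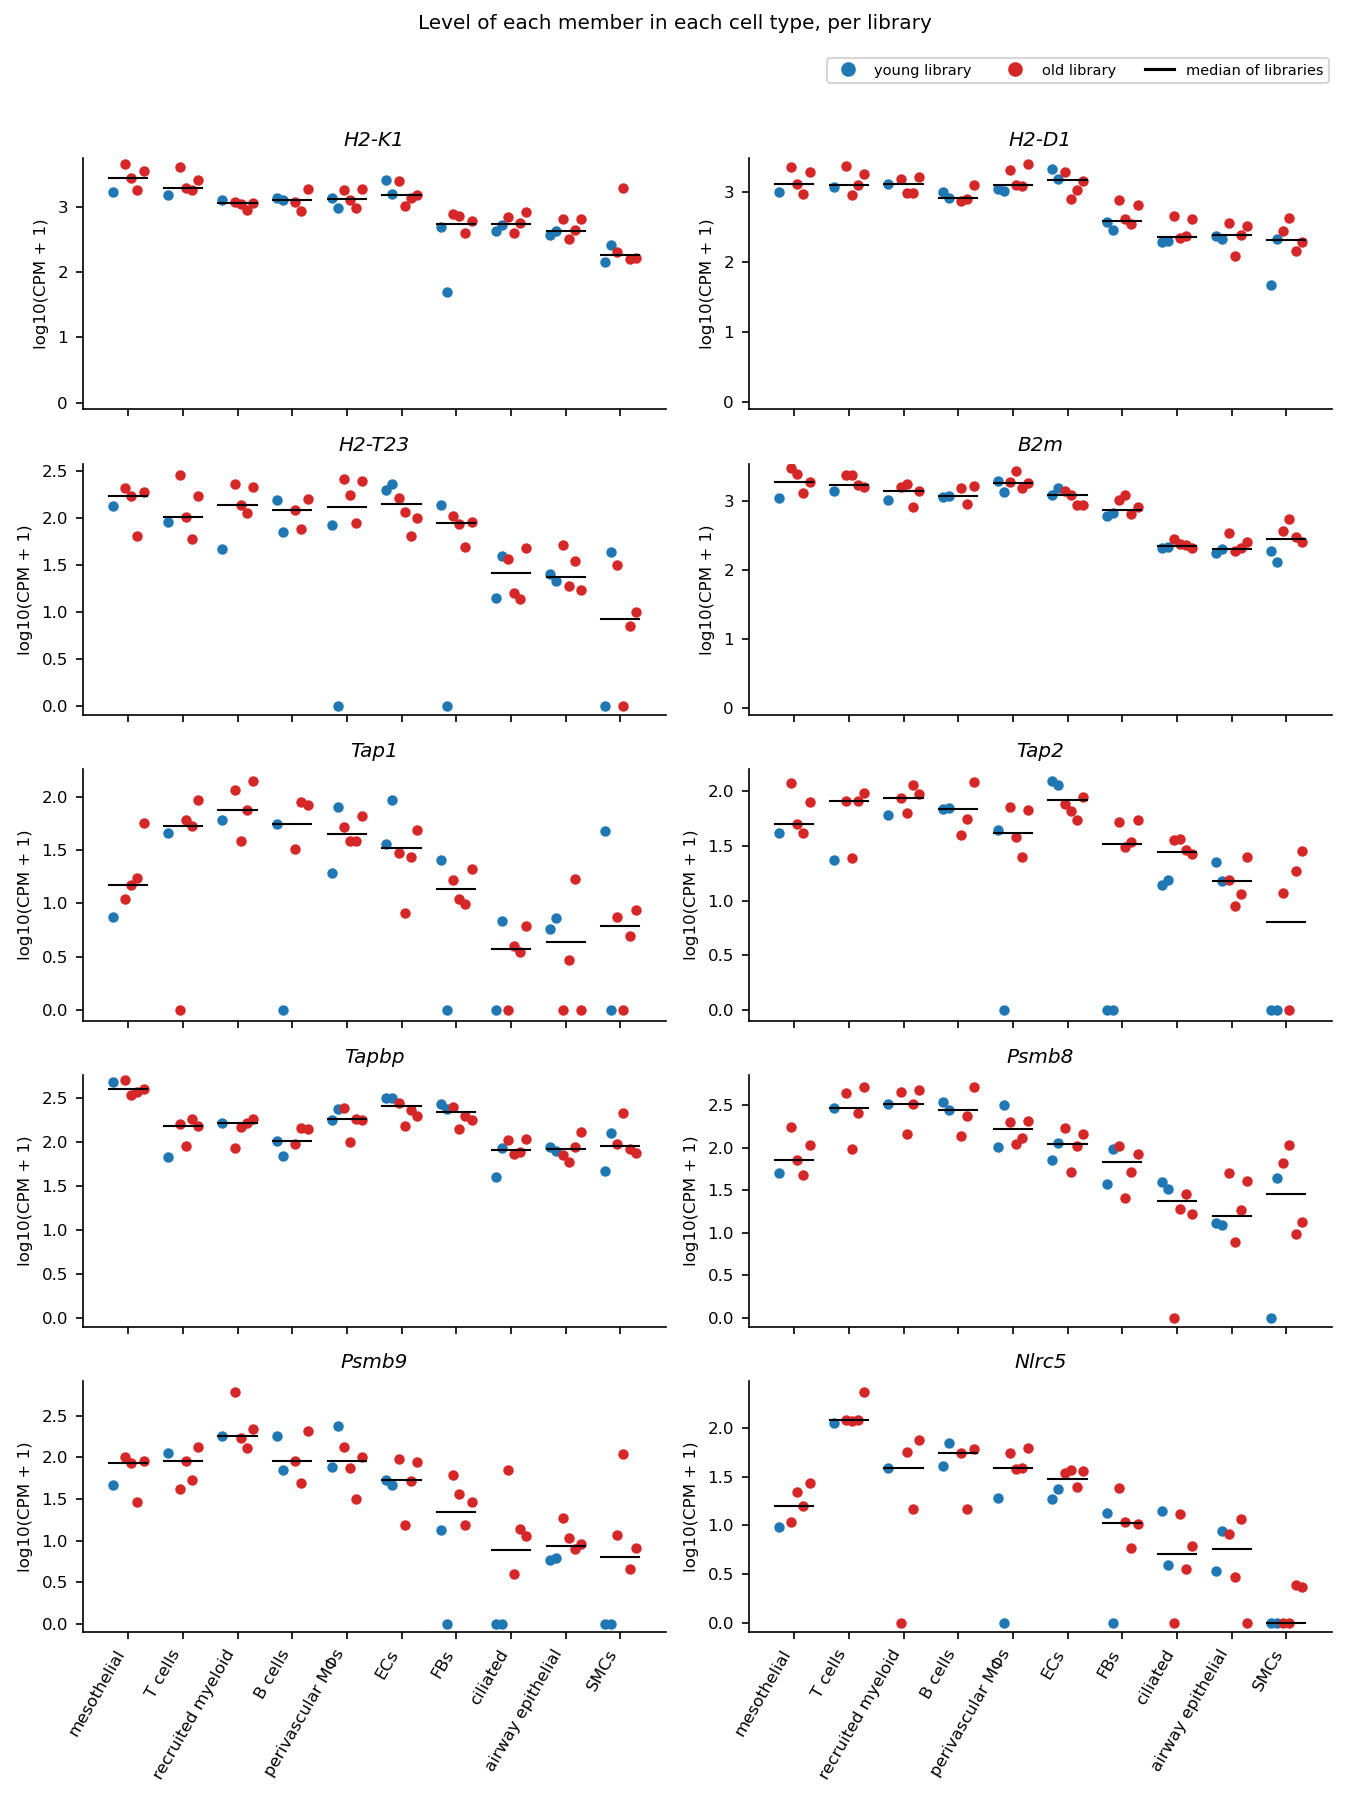
Level of each of the 10 genes in each cell type as log10(CPM + 1), with 1 point per library (young in blue, old in red) and a bar at the median of the libraries. H2-K1 and H2-D1 stand highest in mesothelial, immune and endothelial cells and lowest in SMCs, where the 24-month library (H2-K1 1927 CPM) sits apart.

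H2-K1 encodes the K heavy chain that presents peptides to CD8 T cells. In ECs it stood at 2546 and 1573 CPM in the young libraries and at 2455, 1023, 1349 and 1481 CPM at 20, 24, 27 and 28 months. In perivascular MΦs the values in the same order were 1353, 949, 1816, 1261, 954 and 1891 CPM, within the range seen in ECs or just under it. FBs held 490, 47.8, 765, 725, 397 and 606 CPM, below the ECs of the same library in all 6 libraries. SMCs held 140, 256, 203, 1927, 157 and 164 CPM, and without the doubtful 24-month sum they did not exceed 256 CPM. Outside the wall, mesothelial cells had the highest median of all types (2728 CPM, 1683 to 4424 over 5 libraries), followed by T cells (1939 CPM, 1502 to 4106). Airway epithelial cells (323 to 644 CPM) and ciliated cells (400.5 to 829 CPM) overlapped with FBs.

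H2-D1, the D heavy chain of the same kind, followed H2-K1 closely. ECs held 2104, 1505, 1900, 792, 1064 and 1420 CPM, again with young and old interleaved. Perivascular MΦs held 1118, 1028, 2040, 1273, 1201 and 2498 CPM. In FBs the values were 368, 287, 757, 407, 346 and 648 CPM, and in SMCs 46.5, 213, 280, 428, 143 and 192 CPM. FBs were below both ECs and perivascular MΦs in each of the 6 libraries. Recruited myeloid cells (966 to 1629 CPM) and lymphatic ECs (722 and 1137 CPM, in 2 libraries only) overlapped with the ECs.

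H2-T23 encodes Qa-1, a non-classical heavy chain that shows leader peptides of other heavy chains to a receptor of natural killer and T cells. Its median was 139 CPM in ECs (63.3 to 228), 130 in perivascular MΦs (0 to 254), 86.9 in FBs (0 to 135) and 7.46 in SMCs (0 to 42.7). SMCs thus lay under the other wall cells, with overlapping ranges. Of the 50-base stretches in the last 500 bases of H2-T23, 38.1% also occur in other genes, heavy chains among them, against 9.53% for H2-D1, 0.443% for H2-K1 and none for the other 7 genes, so counts of H2-T23 and H2-D1 are uncertain where reads match several genes.

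B2m, the light chain that every class I heavy chain needs to reach the surface, reached 1903, 1345, 1857, 2719, 1503 and 1778 CPM in perivascular MΦs. In ECs it stood at 1220, 1528, 1372, 1196, 866 and 869 CPM, and in FBs at 601, 669, 1029, 1216, 640 and 799 CPM. SMCs held 186, 128, 362, 535, 297 and 256 CPM, under the FBs of the same library in all 6. Ciliated cells (207 to 280 CPM) and airway epithelial cells (175 to 343 CPM) came last.

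The transporter genes were sparse. Tap1 had a median of 73.2 CPM in recruited myeloid cells, 54.4 in B cells, 44.1 in perivascular MΦs, 32.1 in ECs, 12.7 in FBs and 5.21 in SMCs. Tap2 stood at 124, 114, 75.3, 64.8, 53.8 and 88.7 CPM in ECs, at 43.4, 0, 71.2, 37.1, 24.2 and 66.0 CPM in perivascular MΦs, and had no UMI in the FBs of either young library, against 29.8 to 54.1 CPM in old FBs. In those young FB sums 3 UMIs make 36.8 and 143 CPM. Tapbp, the bridge between heavy chain and transporter, had the flattest profile among types, with medians of 399 CPM in mesothelial cells, 259 in ECs, 220 in FBs, 182 in perivascular MΦs, 102 in B cells and 89.0 in SMCs. Its mesothelial range (344 to 512 CPM) did not touch that of ECs (151 to 319).

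Psmb8 and Psmb9 replace catalytic subunits of the standard proteasome and favour peptides that fit class I. Both had their highest medians in immune cells: Psmb8 had medians of 330 CPM in recruited myeloid cells, 291 in T cells, 277 in B cells and 165 in perivascular MΦs, against 108 in ECs, 66.8 in FBs and 27.6 in SMCs. Psmb9 had 180 CPM in recruited myeloid cells, 88.4 in perivascular MΦs, close to them 84.2 in mesothelial cells, then 52.0 in ECs, 21.1 in FBs and 5.37 in SMCs. Nlrc5 stood at 112, 121, 119, 121 and 232 CPM in T cells (young, then 20, 24, 27 and 28 months), above every B cell library (13.6 to 69.1). It was measured at 17.7 to 36.0 CPM in ECs, 0 to 61.5 in perivascular MΦs, 0 to 23.3 in FBs and 0 to 1.42 in SMCs. When the 11 types are put in order of the median for each gene, the ranges over libraries overlapped in 97 of 100 neighbouring pairs, and the exceptions were B2m between lymphatic ECs and SMCs, Tapbp between mesothelial cells and ECs, and Nlrc5 between T and B cells.

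To ask which of these differences exceeded the spread between libraries, the 7 types with enough cells in young and old were set against FBs in 1 edgeR quasi-likelihood fit over 41 sums and 11696 genes, with library as a block and Benjamini-Hochberg adjustment over all genes. SMCs were lower than FBs in all 10 genes, where 13.9% of all tested genes were lower. The largest log2 differences were those of H2-T23 (-2.75, SE 0.396, adjusted p = 7.6e-08), Nlrc5 (-2.43, SE 0.448, adjusted p = 1.44e-05) and Psmb9 (-1.98, SE 0.414, adjusted p = 0.000113). B2m was lower by a log2 difference of -1.61, H2-D1 of -1.41, H2-K1 of -1.20 and Tap2, the smallest, of -0.97 (adjusted p = 0.0273). The median over the 10 was -1.51, against -0.03 over all genes. Without the 24-month library 9 of the 10 stayed lower, all but Tap2, and without the 20-month library, with 9 of them tested, 7 did, H2-K1 (-1.01) and Tap2 (-0.79) no longer passing. Leaving out the library of 27 or 28 months, which held most SMCs, left 5 and 6 of 9 genes lower. Young and old SMCs came in part from different clusters (c14 held 55 young and 384 old SMCs, while c0 and c1 held 1868 and 1208 old ones). Of these, 1851 in c0 came from the 27-month library, and 352 and 853 in c1 from those of 27 and 28 months. With pathway genes allowed in clustering, the young libraries held 3 and 1 SMCs and those of 20 and 24 months 4 and 0. With cells of at least 1000 UMIs these libraries held 0 each. In both settings only the 27- and 28-month libraries gave SMC sums, and SMCs could not be fitted with age.

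ECs were higher than FBs in 6 of the 10 genes, where 11.5% of all genes were. The heavy chains led, with a log2 difference of 1.63 for H2-K1 (SE 0.338, adjusted p = 9.85e-05) and 1.54 for H2-D1 (SE 0.282, adjusted p = 1.29e-05), both higher in 6 of 6 libraries. Nlrc5 (1.56), Tap1 (1.15), Psmb9 (1.13) and Tap2 (0.87) were also higher. Psmb8 (0.73, adjusted p = 0.088), B2m (0.42), H2-T23 (0.44) and Tapbp (0.11) did not pass. The number passing dropped to 3 of 9 without the library of 27 or of 28 months and was 5 without any other. The EC sums held 6121 to 9779 CPM of endothelial markers. Summed markers of other cells there were 0 to 135 CPM for perivascular MΦs, with all 8 at 0 in both young libraries. They were 0 to 14.4 CPM for T cells, 0 to 137 CPM for B cells and 53.0 to 251 CPM for recruited myeloid cells. Markers of natural killer or innate lymphoid cells (at most 3 of 7 found) were at 192 to 396 CPM and those of lymphatic ECs at 314 to 981 CPM. Markers of FBs, the reference type, were at 713 to 1695 CPM and those of airway epithelial cells at 85.4 to 1743 CPM. Their part in the EC values was not tested.

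Perivascular MΦs were higher than FBs in 8 genes, where 15.9% of all genes were. Nlrc5 had the largest log2 difference (2.14, SE 0.364, adjusted p = 1.47e-06), followed by H2-D1 (1.57), Tap1 (1.55), Psmb9 (1.41), H2-K1 (1.27), Psmb8 (1.23), B2m (1.08) and H2-T23 (0.81). Tap2 (0.12) and Tapbp (-0.27) did not pass, and Tapbp was under the FB value in 6 of 6 libraries, though its sign turned in cells thinned to 500 UMIs (0.047) and in cells of at least 1000 UMIs (0.15). Leaving out 1 library at a time left 6 to 8 of the genes higher.

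B cells were higher in 9 genes, where 20.0% of all genes were, and the proteasome and transporter subunits led there: Psmb8 2.60 (adjusted p = 8.79e-10), Psmb9 2.54 and Tap1 2.33, next to Nlrc5 at 2.56. Tapbp was lower (-0.63, adjusted p = 0.0466; 25.6% of all genes were lower), a call lost when any 1 library was left out. Without the 28-month library 5 of 9 genes were higher in B cells. Airway epithelial cells were lower than FBs in 4 genes (15.9% of all genes) and ciliated cells in 6 (19.3%), with B2m at -1.37 and -1.71. H2-K1 did not pass in either, at 0.33 and 0.25, and its sign in airway cells turned to -0.15 without TMM scaling, which moved the median of all genes in that contrast by 0.45.

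Mesothelial, recruited myeloid and T cells had too few libraries for the first fit and were added in a second one, chosen after seeing the data, over 56 sums and 12517 genes. Mesothelial cells were higher than FBs in 5 genes (11.6% of all genes), with H2-K1 at 2.24 (adjusted p = 1.91e-08), H2-D1 at 1.5, Psmb9 at 1.09, B2m at 1.07 and Tapbp at 0.98. Recruited myeloid cells were higher in 7 (13.6%), led by Psmb9 at 2.74, Tap1 at 2.43 and Psmb8 at 2.30. T cells were higher in 7 (13.4%), led by Nlrc5 at 3.76 (SE 0.390, adjusted p = 1.06e-12), and lower in Tapbp at -0.82 (23.3% of all genes were lower). The heat map of differences from FBs places H2-K1 and H2-D1 above FBs in mesothelial, endothelial and immune cells alike, and the largest values of Psmb8, Psmb9, Tap1 and Nlrc5 in immune cells.

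**Figure D2:**
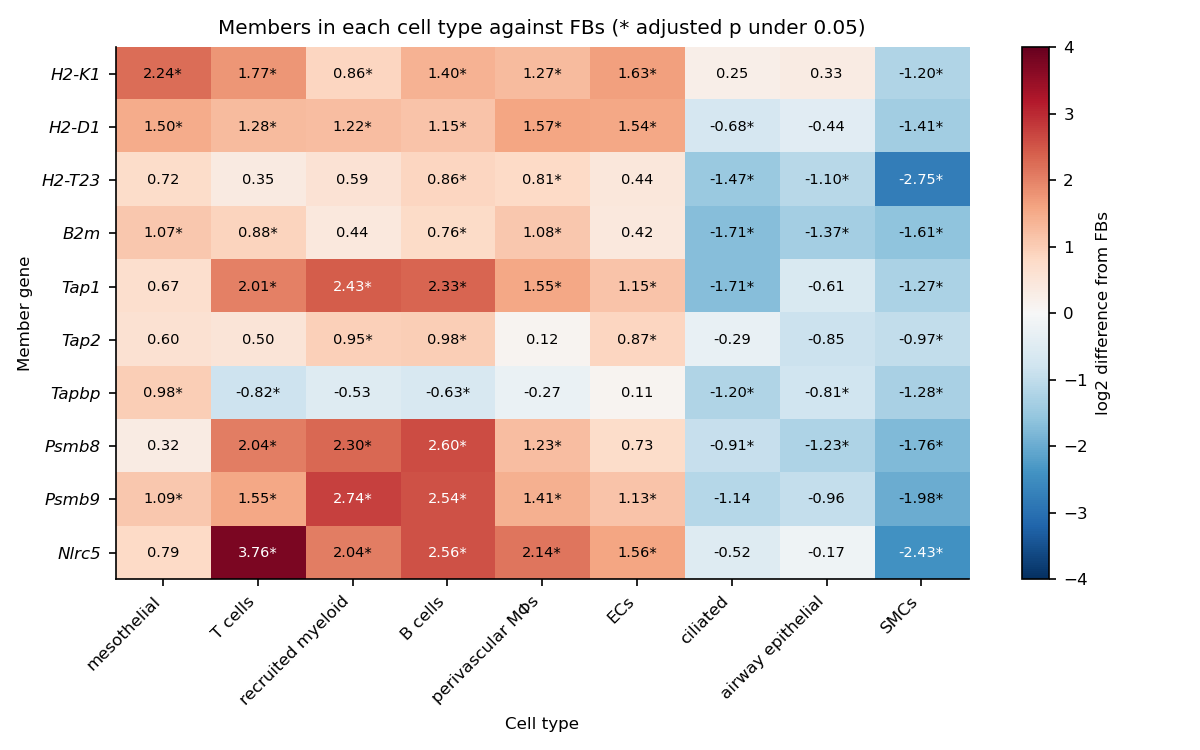
Log2 difference of each gene from FBs in each cell type (colour and number), with a star where edgeR's adjusted p was under 0.05; mesothelial, recruited myeloid and T cells come from the second fit. All 10 genes were lower in SMCs, and Tapbp was the only gene of the 10 that was lower in B and T cells.

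The other genes of the pathway were counted from lists of 49 genes in 7 groups. In SMCs 7 of 9 tested further heavy chains were lower than in FBs, among them H2-Q7 (-3.56), H2-M3, which presents formylated peptides (-2.22), and Hfe, a regulator of iron uptake (-2.17). Of 5 genes of loading and trimming in the endoplasmic reticulum, 3 were lower in SMCs: Tapbpl (-1.44), the disulphide isomerase Pdia3 (-1.04) and the chaperone Calr (-0.94). Among 7 tested interferon signalling genes 4 were lower there, with the kinase Jak1 (-2.04) and the interferon gamma receptor chain Ifngr1 (-1.88) foremost. The standard catalytic subunits went the other way, with Psmb6 (0.98) and Psmb5 (0.86) higher in SMCs and Psmb7 (0.62) not passing. None of 9 tested transcription factors of class I promoters passed in SMCs.

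In ECs 4 of 9 further heavy chains were higher than in FBs, H2-Q6 (4.8), H2-Q7 (4.39), H2-Q4 (2.23) and Hfe (1.31), while Fcgrt, the neonatal Fc receptor, was lower (-2.15). The activator Irf1 was higher in ECs (1.35), while 2 of 7 tested interferon signalling genes were lower there and 0 higher. Perivascular MΦs had 6 further heavy chains higher, with H2-Q7 at 2.72 and Fcgrt at 1.28, and 2 lower, Mr1 (-1.54) and H2-T22 (-0.88). They also had 2 interferon receptor chains higher, Ifnar1 (1.37) and Ifngr2 (1.18), and Socs1, which dampens the signal, lower (-2.09). B cells had the activators Irf2 (1.22) and Nfyc (1.23) and the proteasome activator subunits Psme1 (1.39) and Psme2 (0.76) higher. Of 9 further heavy chains in B cells 3 were higher and 3 lower, and of 7 interferon signalling genes 1 was higher and 1 lower. Among the 5 genes of loading and trimming 1 was lower and 0 higher.

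Free RNA in the droplets can add UMIs to any cell, so the levels were set beside the CPM of barcodes with under 100 UMIs in the same library. H2-K1 stood above its free RNA level in the ECs of 6 of 6 libraries (ratio 2.03 to 7.61, median 2.90) and in perivascular MΦs of 6 of 6 (1.5 to 4.93, median 3.14). In FBs it did so in 4 of 6 libraries (median 1.30) and in SMCs in 1 of 6, the doubtful 24-month sum (median 0.455). B2m was above free RNA in ECs, perivascular MΦs and FBs of all 6 libraries (medians 2.83, 4.0 and 1.95), in SMCs of 1, and in no airway or ciliated library. Above the free RNA in no library were B2m in airway and ciliated cells, Psmb8 and Psmb9 in airway cells and Nlrc5 in SMCs. The share of free RNA among the UMIs of a cell was not estimated, so whether such levels are background was not tested. Others in these types were mixed: H2-K1 was above free RNA in 3 of 6 libraries in airway and in ciliated cells, H2-D1 in 5 of 6 in ciliated cells (median 1.18), Tap2 in 4 of 6 there (1.88), H2-T23 in 5 of 6 in airway cells (1.46) and Tapbp in 4 of 6 in SMCs (1.35). Nlrc5 was above free RNA in 2 of 6 libraries in FBs (median 0.533) and in 4 of 6 in ECs and in perivascular MΦs, so its log2 differences from FBs are set against a level that free RNA alone mostly reached.

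**Figure D3:**
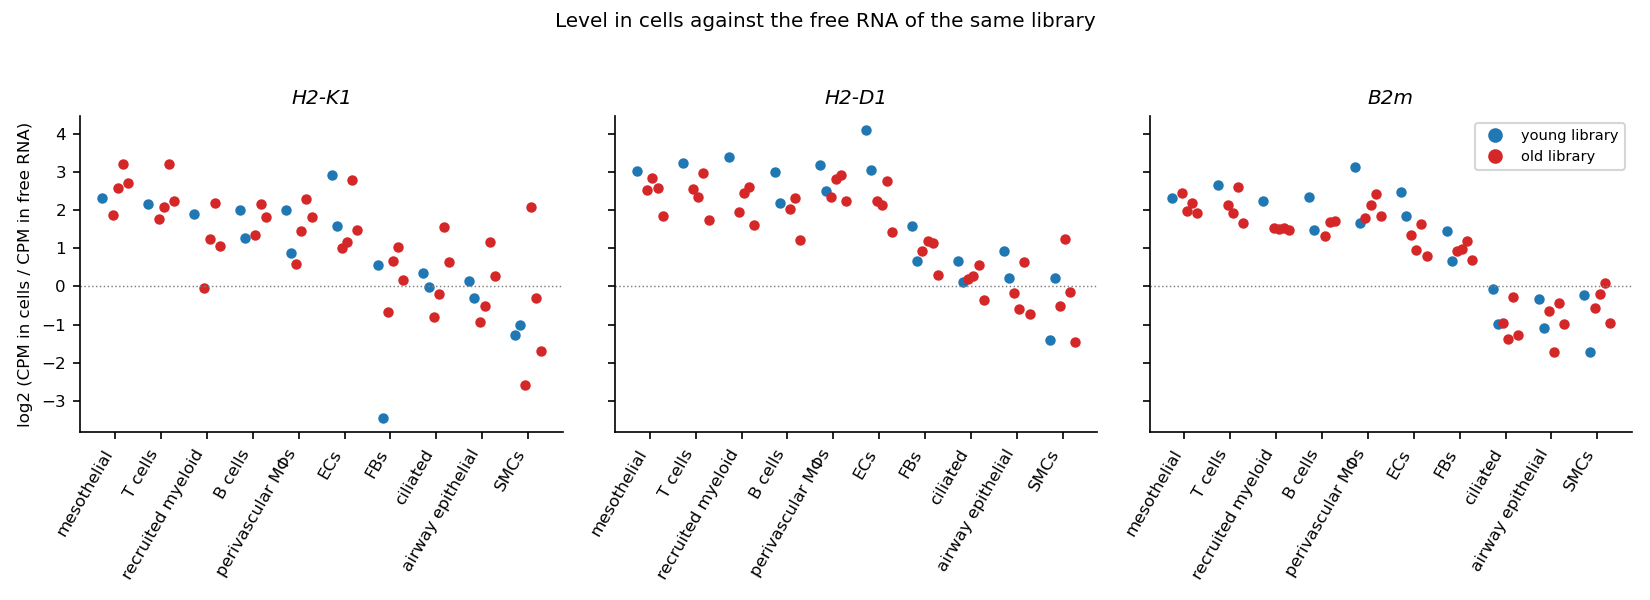
Log2 ratio of the CPM in cells to the CPM of free RNA (barcodes under 100 UMIs) of the same library for H2-K1, H2-D1 and B2m, with 1 point per library and a dotted line at equality. ECs and perivascular MΦs lie above the line in all 6 libraries for each of the 3 genes, and most SMC points lie below it.

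Cells of the wall types differed in depth, so shares of cells with a UMI, pooled over the cells of all libraries, were also taken at equal depth. H2-K1 was seen in 83.4% of ECs (median 1986 UMIs), 81.8% of perivascular MΦs (2339.5), 72.1% of FBs (4626) and 64.8% of SMCs (8190.5). With every cell thinned to 500 UMIs the shares were 52.7%, 48.9%, 23.8% and 8.47%. Most SMCs (2343 of 3518) came from the 27-month library, so the thinned shares of H2-K1 were also read per library. They ran from 33.7% to 67.1% in ECs, 26.3% to 57.1% in perivascular MΦs and 3.45% to 33.3% in FBs, with ECs above FBs in each of the 6 libraries, and from 4.17% to 11.6% in SMCs outside the 10 cells of the 24-month library. For B2m the thinned shares were 40.2% in ECs, 51.7% in perivascular MΦs, 30.6% in FBs and 13.6% in SMCs, and in airway epithelial cells 9.72%.

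The 10 genes were also set against each other from sum to sum. Over the 41 library and type sums, which share libraries and depth, Spearman's rho of each gene with the mean of the other 9 was highest for H2-D1 (0.953), H2-K1 (0.880) and B2m (0.857) and lowest for Tap1 (0.659) and Tapbp (0.560). The genes outside the pathway most like the mean of the 10 were Fxyd5 (0.822), Arhgdib (0.80), Sp100 (0.798), Plcg2 (0.794) and Nfatc1 (0.787). Next came Tgfb1, Sp110, Fli1, Phf11b and the class II chain H2-Aa (0.781). These outside genes were picked as the highest of 11696 genes. Psmb8 (0.773), Nlrc5 (0.755), Tap2 (0.751), Tap1 and Tapbp stood below them. The values over all genes are not given, so whether the 10 genes move together more than others was not tested.

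The comparison the study was made for is old against young. Within each type, edgeR's quasi-likelihood test with Benjamini-Hochberg adjustment called none of the 10 genes in any of 7 types, and DESeq2 called none either. Few genes of any kind were called: 3 of 6799 in FBs (0.0441%), 8 of 7146 in SMCs (0.112%), 12 of 8717 in ciliated cells (0.138%) and 0 of 5872 in ECs, 6198 in perivascular MΦs, 2903 in B cells and 7206 in airway epithelial cells (0% each). At an unadjusted p under 0.05 the counts were 437 genes in FBs (6.43%), 407 in SMCs (5.70%), 336 in ECs (5.72%), 407 in perivascular MΦs (6.57%), 189 in B cells (6.51%), 469 in airway epithelial cells (6.51%) and 505 in ciliated cells (5.79%). Of the 10 genes, 1 was among them in FBs (Tap2) and 1 in ciliated cells (Psmb9). The same genes were the ones of the 10 past the study's threshold of an unadjusted p under 0.05 and a fold over 2, which 6.38% of all genes passed in FBs, 5.70% in SMCs, 5.69% in ECs, 6.57% in perivascular MΦs, 6.48% in B cells, 5.59% in airway epithelial cells and 5.79% in ciliated cells. With 2 young and 4 old libraries a permutation test of 1 value cannot reach a p under 0.05. The p-values measure only the spread between these 6 mice. Genes entered these fits when found in more than 5% of cells in 3 or more libraries, which old libraries alone can meet. Of the genes named below for a gap, Tap2 and Psmb9 in FBs and in ciliated cells and Psmb9 in airway cells did so. Nlrc5 in ECs and perivascular MΦs did so too. Among genes without a gap, Tap2 in perivascular MΦs, Psmb9 in ECs, Psmb8 in SMCs and Psmb8 and H2-T23 in airway cells did. All of these had a fold change above 0. H2-T23 in SMCs and Tap2 in airway cells, both below 0, did so as well. The filter thus favours a higher old level for them, and the shares of all genes given beside them carry the same bias. Young and old sums also drew on partly different clusters, with 140 young ECs in c3 (Edn1 and Vcam1 among its leading genes), against 985 old ECs there and 769 in c8 (Vwf among them), and 116 young FBs in c6, against 671 old FBs there and 993 in c4.

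**Figure D4:**
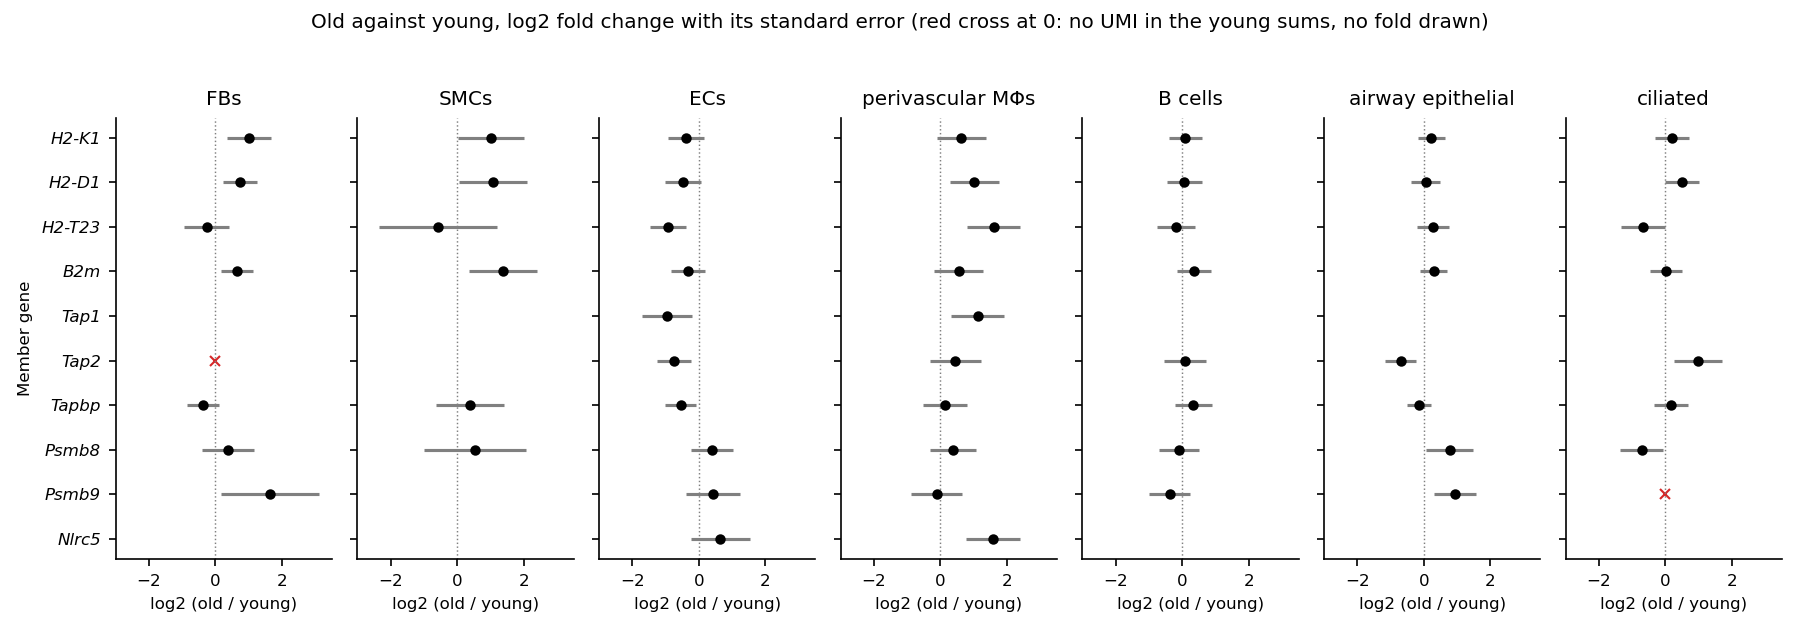
Log2 fold change of old against young for each gene and cell type (point) with its standard error (line); a gap means that the gene was not tested, and a red cross that the young sums held no UMI. None of the 10 genes passed at an adjusted p under 0.05, with more points left of 0 in ECs (7 of 10) and right of 0 in perivascular MΦs (9 of 10).

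In ECs the fitted log2 fold change was below 0 for 7 of the 10 genes and above 0 for 3, with a median of -0.43, while 57.1% of all tested genes were above 0 with a median of 0.12. None passed (adjusted p 0.911 to 0.976). Every old library lay below both young ones in 3 genes, a pattern seen in 8.04% of all tested genes. H2-T23 stood at 195 and 228 CPM in young ECs and at 162, 115, 63.3 and 99.1 CPM at 20, 24, 27 and 28 months. Its log2 fold change was -0.92 (SE 0.541, adjusted p = 0.911), and the young sums held 21 UMIs of it. Tap2 (-0.76, SE 0.511, adjusted p = 0.919) and Tapbp (-0.54, SE 0.462, adjusted p = 0.922) showed the other gaps, the latter with 318 and 319 CPM in young against 283, 151, 234 and 200 CPM in old ECs. Nlrc5 (0.64, SE 0.886, adjusted p = 0.970) was the 1 gene with every old library above the young ones (11.9% of all genes), resting on 2 young UMIs. H2-K1 (-0.38) and H2-D1 (-0.48), with 213 and 185 young UMIs, overlapped between ages.

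The EC values of H2-T23, Tap2 and Tapbp kept their sign under each alternative that gave one, but not their size. Without a gene filter they were at -0.45, -0.26 and -0.058, and without the 27-month library at -0.52, -0.43 and -0.36. Within c3 alone, which holds most young ECs, they were at -0.74, -0.82 and -0.56. With the shared-barcode set as a covariate they were at -0.77, -0.79 and -0.98. Erythroid markers differed among the EC sums, at 212 and 410 CPM in young and 66.2, 25353, 26.4 and 6979 CPM in old, and their part in these values was not tested. Of 29 further pathway genes tested in ECs, the heavy chain H2-Q4 was the 1 with every old library below the young (-0.90, adjusted p = 0.897). The kinase Jak2 (1.55), the heavy chain H2-T22 (1.42) and Fcgrt (0.44) had every old library above, on 2, 2 and 4 young UMIs.

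In perivascular MΦs the fold change was above 0 for 9 of the 10 genes, with a median of 0.58, where 62.9% of all genes were above 0 with a median of 0.24. None passed (adjusted p 0.758 to 0.998), and without TMM scaling, which shifted the median of all genes by 0.10, the count was 8. Of the 9 genes above 0, Nlrc5 and Tap2 met the gene filter through old libraries alone. All 4 old libraries exceeded the young ones in 3 genes (12.3% of all tested genes), and in none were they all lower (7.44%). H2-T23 was at 83.2 and 0 CPM in young and 254, 173, 86.6 and 243 CPM in old MΦs, a log2 fold change of 1.60 (SE 0.795, adjusted p = 0.758). Nlrc5 was at 18.1 and 0 CPM against 54.2, 37.1, 38.2 and 61.5 CPM (1.57, SE 0.816, adjusted p = 0.777), with 5 young UMIs. In the second young sum 3 UMIs make 237 CPM, so it is too shallow for its 0 to show a low level. The gap of H2-T23 and Nlrc5 thus rests on the first young library. H2-D1, with 322 young UMIs, had a log2 fold change of 1.02 (SE 0.748, adjusted p = 0.855).

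The lowest old library stood close to the young ones for these genes, at 86.6 against 83.2 CPM for H2-T23 and at 1201 against 1118 CPM for H2-D1. The second young library gave 19 perivascular MΦs, and without it H2-T23 was at 1.15, H2-D1 at 0.60 and Nlrc5 at 1.37. Young MΦs had a median of 845 UMIs and old ones 4011, and with all cells thinned to 500 UMIs H2-T23 was at 0.87 and H2-D1 at 0.94. With the shared-barcode set as a covariate H2-D1 was at 0.63. Without the 20-month library H2-T23 was at 1.32 and H2-D1 at 0.89. The macrophage markers themselves were at 8086 and 9887 CPM in young and at 7811 to 26382 CPM in old MΦs, airway markers at 242 and 2610 CPM against 70.4 to 1088 CPM, and young cells lay mostly in c100.2 and c100.8, old ones in c100.0, c100.3 and c100.4. Whether these bear on the values was not tested.

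**Figure D5:**
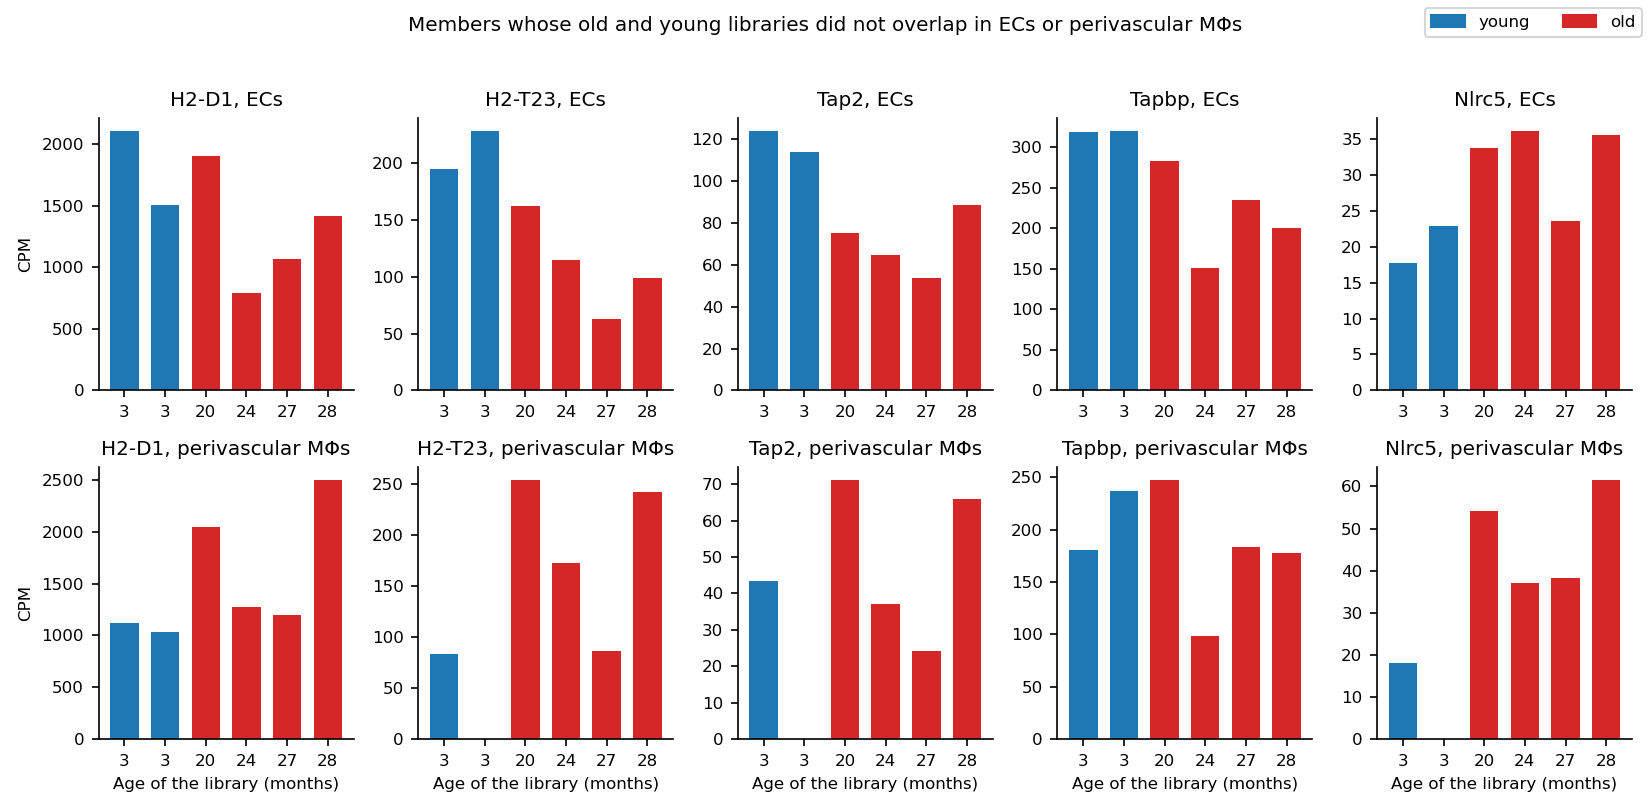
CPM of H2-D1, H2-T23, Tap2, Tapbp and Nlrc5 in ECs (top) and perivascular MΦs (bottom), 1 bar per library in order of age in months (young in blue, old in red). In ECs the old bars of H2-T23, Tap2 and Tapbp are all under the young ones, and in perivascular MΦs those of H2-T23, H2-D1 and Nlrc5 are all above them. The second young sum of perivascular MΦs is shallow (3 UMIs make 237 CPM), so its bars at 0 do not show a low level.

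The difference between ECs and perivascular MΦs was tested as an interaction of age and type with library as a block, a fit added after seeing the data. The change in perivascular MΦs minus that in ECs was 2.48 for H2-T23 (SE 0.739, adjusted p = 0.465) and 1.5 for H2-D1 (SE 0.566, adjusted p = 0.658), and neither passed, though both had an unadjusted p under 0.05. Of 4541 genes in that fit 1 was called (0.0220%) and 6.25% had an unadjusted p under 0.05. Between FBs and ECs the interaction was 1.27 for H2-D1 (adjusted p = 0.401), 1.5 for H2-K1 (adjusted p = 0.667) and 0.95 for B2m (adjusted p = 0.654), with 3 of 5092 genes called (0.0589%) and 6.46% at an unadjusted p under 0.05. H2-D1, H2-K1, B2m and Tap2 were under that unadjusted limit, Tap2 (adjusted p = 0.432) with no UMI in young FBs. Between SMCs and ECs it was 1.60 for B2m (adjusted p = 0.859), with 0 of 5047 called and 280 at an unadjusted p under 0.05 (5.55%).

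In FBs 8 of the 10 genes could be tested, 6 above 0 and 2 below, where 60.2% of all genes were above 0, with a median of 0.70 against 0.19 over all genes. Tap2 had no UMI in either young library, from 93 and 29 cells, and 410 in old FBs, at 51.8, 29.8, 33.6 and 54.1 CPM (edgeR adjusted p = 0.709). Set against 3 counts over the young group, the pooled level was at least 1.59-fold higher, where the 95% interval for counting error reaches down to 1.29. Psmb9 (1.64, SE 1.48, adjusted p = 0.904) was the other gene of the 10 whose old libraries lay above the young (17.1% of all genes). It rested on 1 young UMI. Both Tap2 and Psmb9 passed the gene filter through old libraries alone. No gene of the 8 had the old libraries all below (7.57%). H2-K1 was at 490 and 47.8 CPM in young FBs, a spread wider than that among the old ones (397 to 765). The 47.8 CPM were 1 UMI, in a sum where 3 UMIs make 143 CPM.

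In SMCs 6 genes could be tested, 5 above 0, where 69.4% of all genes were, and TMM scaling accounted for 0.36 of the median of 0.50 over all genes. B2m, at 186 and 128 CPM in young and 256 to 535 CPM in old SMCs, was the gene with no overlap (1.37, SE 1.02, adjusted p = 0.848; 9.04% of all genes), from 7 young UMIs, and no gene of the 6 had every old library below the young (7.89%). B2m was at 0.50 in cells thinned to 500 UMIs, where young SMCs had a median of 700.5 and old ones of 8250 UMIs. With the shared-barcode set as a covariate it was at 0.96, which rests on the 10 SMCs of the 24-month library against the young ones. With 1 library left out it was at 1.18 to 1.96. Without the 24-month library it was at 1.37, and the number of genes called in SMCs was 0.

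B cells held 1486 young UMIs of H2-K1, 1468 of them from the first young library. Most young B cells (1060, of which 1044 from the first young library) lay in c2, with 72 old ones. Most old ones (896, of which 887 from 24 months) lay in c5, with 24 young ones. B cells showed no gap between ages in any of the 8 genes tested. Every old library was above the young in 19.3% of all genes and below in 13.1%. Log2 fold changes of the 8 genes in B cells ran from -0.38 to 0.36, 5 of them above 0 (55.1% of all genes). Their median was 0.08 against 0.09 over all genes. Airway epithelial cells ran from -0.69 to 0.94, with 6 of 8 above 0 (52.3%). Psmb8, Psmb9 and H2-T23 among these 6 met the gene filter through old libraries alone. Psmb9 (0.94, SE 0.637, adjusted p = 0.856) was the 1 gene with old above young (7.77% of all genes), and none had old below young (6.81%). Of the young airway cells, 103 of 208 and 154 of 314 had a barcode shared with another library. Without shared barcodes Psmb9 was at 4.73. Ciliated cells also had 6 of 8 above 0 (50.1%) and 3 with old above young (9.41%). These were H2-D1 (0.49, SE 0.515, adjusted p = 0.974), Tap2 (0.97, SE 0.721, adjusted p = 0.961) and Psmb9. Psmb8 (-0.72, SE 0.638, adjusted p = 0.973) had old below young, as did 6.36% of all genes. Of the young ciliated cells, 34 of 48 and 61 of 102 had a shared barcode. Without shared barcodes H2-D1 was at 0.26 and Tap2 at 1.25, and Psmb8 could not be tested. Psmb9 had no UMI in young ciliated cells and 15 in old ones (edgeR adjusted p = 0.674), with a pooled level at least 1.57-fold higher against 3 counts over the young group and a 95% interval for counting error that reaches down to 1.12. The old ciliated libraries ranged from 2.99 to 70.1 CPM, the highest from 2 UMIs in 15 cells. In the young ciliated sums 3 UMIs make 38.9 and 8.69 CPM.

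Of the 49 further pathway genes, 17 to 32 could be tested per type, and none of those was called with age. The 4 genes of receptors that read class I were tested with age in no type. In perivascular MΦs 25 of the 30 tested were above 0, including 7 of 7 heavy chains with a median of 1.23, and 2 had an unadjusted p under 0.05: H2-Q4 (3.09, adjusted p = 0.667; 2 young UMIs) and Hfe (1.72, adjusted p = 0.746). In ECs 20 of 29 were above 0, and the shares of all genes above 0 in these types are given further up. Elsewhere the single genes under that limit were Nfyc in SMCs and H2-M3 in ciliated cells, both with no young UMI, Irf2 in B cells (1.36, adjusted p = 0.756) and Rfxap in airway epithelial cells (-1.12, adjusted p = 0.752).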

How the data were processed

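The authors deposited raw UMI counts per gene and barcode for 6 libraries, with the genes and barcodes listed beside them. Per the labels, reads were trimmed with cutadapt and mapped and counted with STAR and STARsolo on GRCm38.p6 (release M22 in the study's methods), and tool versions are not given in the sources used here. No columns were left unmapped (0). The chemistry was 10x 3′, so each UMI marks 1 molecule near the 3′ end, and counting error is 1 part of the spread between libraries. Every barcode was in the files, and those that held 500 or more UMIs and 300 or more genes, with no more than 20% of UMIs from mitochondrial genes, were kept. Doublets were removed with scrublet in scanpy 1.11.5. Cells were clustered with Leiden (leidenalg 0.10.2, resolution 1) on 2000 variable genes without the pathway genes, and clusters were named from marker lists. The 10 genes, the marker lists and the pathway lists were chosen with earlier results of these data known.

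Counts were summed per library and type with at least 10 cells and tested with edgeR 4.0.16 (R 4.3.3): quasi-likelihood, TMM scaling, robust fit, Benjamini-Hochberg adjustment over all tested genes, adjusted p under 0.05. Old against young was fitted per type, on genes found in more than 5% of the type's cells in 3 or more libraries. Types were set against FBs with library as a block. Folds of genes with no young UMI were set against 3 counts. Depth sets the precision: libraries held 6355125 to 50436562 UMIs. Fold changes with age are given in full for genes of the 10 with an unadjusted p under 0.05 or with no overlap between ages, and the others by counts, ranges and a few values. Pathway genes were counted per group, with single genes chosen by the same rule or, between types, among the genes that passed. Alternatives were no TMM, DESeq2 1.42.0, no gene filter, stricter cells, thinning to 500 UMIs, doublets kept, shared barcodes left out or used as a covariate, pathway genes allowed in clustering, each library left out, and an unadjusted p under 0.05 with a fold over 2. The fits within 1 cluster, with 3 further types and with an interaction were chosen after seeing the data. The fitting steps were tested on simulated data. All 10 genes matched GENCODE M21, the release at hand, by identifier, as did 52093 of 53647 genes.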

Additional observations from a re-analysis of the deposited data

Results flagged for a closer look

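Of 90 sets of 4 old libraries (1 gene in 1 cell type) checked for a library far from the others, 7 stood out, and chance alone sets apart about 1 in 20 such sets, or 5%. In SMCs the 24-month library was far above the other 3 for H2-K1 (1927 CPM, 18 UMIs), Tapbp (214 CPM, 2 UMIs) and Psmb9 (107 CPM, 1 UMI). In that sum 3 UMIs make 321 CPM, so the Tapbp and Psmb9 values lie under this floor. The sum came from 10 cells and held 29446 CPM of alveolar epithelial markers, and its part in these values was not tested. In T cells the 28-month library was far above the others for Nlrc5 (232 CPM). Tap1 stood out at 15.8 CPM in the airway epithelial cells of the 27-month library and at 56.0 CPM in the mesothelial cells of the 28-month library. In ciliated cells the 20-month library was far above the others for Psmb9 (70.1 CPM). That value is 2 UMIs from 15 cells, in a sum where 3 UMIs make 105 CPM.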

How the results depend on the processing

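No paired analysis was possible because the labels give no replicate numbers that young and old libraries share. None of the 10 genes was called with age in any type under an adjusted p, in any setting where the type could be fitted. With an unadjusted p under 0.05 and a fold over 2, 1 of the 10 passed in FBs and 1 in ciliated cells, beside 434 genes in FBs, 407 in SMCs, 334 in ECs, 407 in perivascular MΦs, 188 in B cells, 403 in airway epithelial cells and 505 in ciliated cells. Without a gene filter 20, 25, 8, 34, 16, 114 and 70 genes were called in these types. DESeq2 called 0 genes in SMCs, 1 in ECs, 1 in perivascular MΦs, 2 in airway epithelial and 3 in ciliated cells. With the shared-barcode covariate the age estimate rested on the 24-month library against the young ones, so its calls are not set beside these counts. Thinning left 0 in FBs, 2 in SMCs and 1 in ciliated cells, cells of at least 1000 UMIs left 0 in ciliated cells, and the cluster with most young cells left 1 in FBs and 4 in SMCs. Leaving out 1 library gave 0 to 3 genes in FBs, 0 to 9 in SMCs, 0 to 3 in perivascular MΦs (3 without 24 months), 0 to 59 in B cells (59 without 24 months), 0 to 10 in airway epithelial cells (10 without the first young library) and 1 to 55 in ciliated cells (55 without the first young library, 53 without 24 months). The cause was not tested.

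Between types, thinning tested 6 of the 10 genes and left 5 lower in SMCs, 3 higher in ECs, 4 higher in perivascular MΦs, 3 higher and 0 lower in B cells and 3 lower in ciliated cells. No TMM gave 7 lower in airway epithelial cells, and cells of at least 1000 UMIs gave 0 lower in B cells and 3 lower in ciliated cells. Leaving out 1 library gave 5 to 10 lower in SMCs (5 without 27 months, 6 without 28), 3 to 5 higher in ECs (3 without 27 or 28 months), 6 to 8 higher in perivascular MΦs, 5 to 9 higher in B cells (5 without 28 months), 0 lower in B cells, 3 to 5 lower in airway epithelial cells and 3 to 6 lower in ciliated cells (3 without 28 months).

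Of 618 such log2 values, 63 lost their call and 7 others turned sign. The 63 values are not named here, and the 7 that turned belong to 4 results. H2-K1 turned in airway epithelial cells (-0.15 without TMM, -0.035 thinned, -0.017 to 0.53 with 1 library left out, lowest without the second young one). It also turned in ciliated cells (-0.075 to 0.48, lowest without the second young library). Tapbp turned in perivascular MΦs (0.047 thinned, 0.15 with at least 1000 UMIs). Nlrc5 turned in airway epithelial cells (-0.54 to 0.17, highest without 24 months). Of the 195 values for genes named with age, 1 turned, H2-D1 in ciliated cells (-0.12 thinned). None of these turned values had been called. Depth limits the young sums most: 21 UMIs of H2-T23 in ECs and 7 of B2m in SMCs.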
